A study of Homo sapiens with 4 samples.

Results

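The genes described here are 10 transcription factor and early response genes, namely FOS, FOSB, FOSL1, FOSL2, JUN, JUNB, JUND, ATF3, EGR1 and IER2. They were chosen by name, as the rows of the count table whose Ensembl identifiers belong to these symbols, and all 10 were found among the 20348 genes of the table. The libraries came from K562, a line of chronic myeloid leukemia cells, and THP-1, a line of acute monocytic leukemia cells. Each line was kept for 72 h in 100 nM periplocin, a cardiac glycoside of Cortex periplocae, or in its vehicle DMSO at 0 nM periplocin. The controls are called blank in one label and DMSO in the library names, and they are called DMSO here. There was 1 library per condition and 4 in all, from 1 biological replicate as the study states it, so no difference below has a replicate check. Each p-value from a pair compares 2 libraries and not 2 conditions, and the error behind p-values over all 4 libraries is described with them. Intervals cover counting error only, except where an assumed dispersion is named.

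AP-1 is a dimer that binds DNA through a basic region and holds together through a leucine zipper. FOS proteins (FOS, FOSB, FOSL1, FOSL2) need a JUN partner, while JUN proteins (JUN, JUNB, JUND) also pair among themselves, and ATF3 is a stress-induced relative that pairs with JUN proteins and often represses. EGR1 is a zinc finger factor and IER2 a small nuclear protein. Most of these genes are switched on within minutes of a growth factor or stress signal, without new protein synthesis, and their transcripts are short-lived. In monocytic cells AP-1 is known for its part in differentiation and inflammatory gene expression.

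The control regions of these genes hold some of the sites that their own products and related factors bind. RefSeq promoters of 300 bases on GRCh38.p14, 250 before and 50 after the start, were found for 9 of the 10 genes, as 10 promoters in all. FOSL1 was the gene without an entry. The sequences below are shown because they carry the sites found before the start of JUN, ATF3 and EGR1, which were called in both lines, and of JUND, which was called in neither, with 8 bases on each side. They are written 5′ to 3′ on the strand of the gene, and capitals mark the motif.

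JUN, chr1:58784099-58784122, minus strand, TGACATCA: ccttggggTGACATCAtgggctat
ATF3, chr1:212565276-212565299, plus strand, TGACATCA: ctatgataTGACATCAtatggcca
EGR1, chr5:138465366-138465413, plus strand, a pair of CArG boxes: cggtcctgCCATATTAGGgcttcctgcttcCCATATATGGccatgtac
EGR1, chr5:138465273-138465297, plus strand, GCGNGGGCG: ggatgcggGCGCGGGCGcgggccct
JUND, chr19:18281807-18281830, minus strand, TGACGTCA: cgcccccaTGACGTCAacccacaa

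The motifs were searched on both strands, and no match shared a base with another. TGACATCA is a form of the cAMP and AP-1 response element that is known from the JUN promoter. It was added after the other motifs had been searched, and it stood in the promoters of JUN and ATF3 and in 2.61% of the 35116 promoters in the table. The CArG box, the core that serum response factor binds, occurred 2 times in the EGR1 promoter and was present in 1.29% of all promoters. EGR1 also held GCGNGGGCG, the letters that EGR proteins read, as did 9.43% of promoters. The full cAMP response element TGACGTCA was found in JUND alone among the 9 genes and in 1.85% of promoters. The TPA response element TGANTCA, the classical AP-1 site, was found in FOSL2 alone, just after the start, and in 7.71% of promoters. A match is a description of these letters and not of a bound site.

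Library totals lay between 16381172 and 20622719 counts, and the 10 genes together took 7434 to 10781 of them. Mitochondrially encoded genes held 2.07% of the counts in K562 periplocin and 3.92% to 5.62% in the other libraries. The 8 erythroid markers summed to 1968 CPM, a count scaled to its library total, in K562 DMSO and 8588 CPM in K562 periplocin, against 10.3 and 8.18 CPM in the THP-1 libraries, where 4 or 5 of the 8 had more than 3 counts. The 8 myelomonocytic markers summed to 2394 and 2337 CPM in THP-1 and to 94.3 and 85.9 CPM in K562, and 5 markers of other cell types to 47.0 and 46.4 CPM in K562 and 0.727 and 1.47 CPM in THP-1. Each line thus carried the markers of its label. In K562 the erythroid markers and the mitochondrial share moved together with the treatment, and their part in the results below was not tested. In THP-1 the myelomonocytic sum hid changes in both directions: the granule protease gene CTSG fell from 302 to 82.3 CPM (log2 ratio -1.86), MPO, the granule peroxidase, fell from 43 to 14 counts (-1.38), and the integrin gene ITGB2 had 442 and 822 CPM (0.91, below the 2-fold limit). Their part was not tested either. In such bulk libraries a smaller number of cells of one kind cannot be told apart from less RNA per cell.

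In DMSO, after the same 72 h as the treated cultures, the lines differed in the levels of these genes. Levels of different genes are compared as CPM per kilobase of exon. In K562 DMSO the order was IER2 (50.3), EGR1 (42.4), JUND (31.3), JUNB (27.5), JUN (17.7), ATF3 (14.4), FOSL1 (7.67), FOS (2.66), FOSL2 (1.20) and FOSB (0.143). In THP-1 DMSO the order was FOSL2 (39.4), JUND (28.3), JUNB (16.2), FOS (12.3), IER2 (8.16), EGR1 (5.24), FOSL1 (3.21), JUN (2.07), FOSB (0.472) and ATF3 (0.336). Without replicates it cannot be said which neighbours in these orders differ beyond a spread. The orders also depend on the length given to each gene. With the longest coding transcript as length, FOS in THP-1 DMSO stood at 18.4, above JUNB (16.2). ATF3, with 4040 bases of merged exon but 2033 in its longest coding transcript, would likewise move up in K562 DMSO. IER2 stood at the 95.1 percentile of all genes with counts in K562 and at the 66.3 percentile in THP-1, whereas FOSL2 stood at the 30.7 percentile in K562 and the 94.0 percentile in THP-1. JUND was at the 91.0 and 90.8 percentiles.

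**Figure D1:**
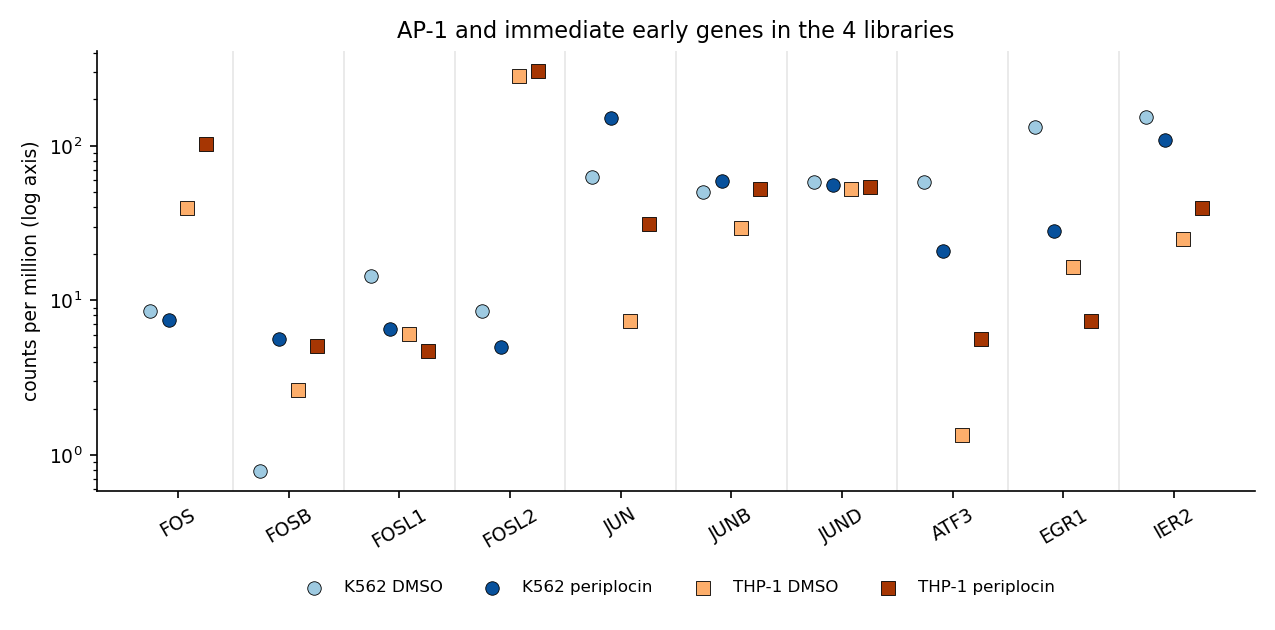
CPM of the 10 genes in each of the 4 libraries, on a log axis. Circles stand for K562 and squares for THP-1, light for DMSO and dark for periplocin, with 1 library per point and no error bar. The 4 JUND points lie together between 52.7 and 58.3, while FOSL2 is at 282 and 306 in THP-1 against 8.61 and 5.01 in K562.

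Of the 10 genes, 8 differed between the DMSO libraries by at least 2-fold with an adjusted p under 0.05 in edgeR's exact binomial test on TMM-scaled library sizes, adjusted over all genes with a count. TMM is a scaling that centres the bulk of the genes, and here it moved every log2 ratio of THP-1 to K562 by 0.12 upward against scaling by totals. There were 3 genes higher in THP-1, where 21.7% of all 16431 genes tested were higher, and 5 lower, where 19.5% were. FOSL2 had 141 counts in K562 and 5819 in THP-1, a log2 ratio of 5.15 with a 95% interval from 4.91 to 5.41. ATF3 went the other way, with 953 counts in K562 and 28 in THP-1, a log2 ratio of -5.29 (interval -5.90 to -4.76). These were the 2 widest gaps among the members.

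FOS, with 141 and 819 counts, was 5.01-fold higher in THP-1 (interval 4.19 to 6.04), and FOSB, with 13 and 54 counts, 3.56-fold higher (1.93 to 7.17). JUN was 7.89-fold lower in THP-1, with 1029 counts in K562 and 151 in THP-1. EGR1 was 7.45-fold lower and IER2 5.67-fold lower. FOSL1 was 2.19-fold lower. JUNB was 1.56-fold lower, below the 2-fold limit, and JUND had a log2 ratio of -0.02 with an interval from -0.15 to 0.10. Of the genes called, IER2, EGR1, ATF3, JUN and FOSL1 were thus on the K562 side, and FOS, FOSB and FOSL2 on the THP-1 side.

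The second question is what each line did under periplocin. In K562, 5 of the 10 genes were called: FOSB and JUN higher, against 8.18% of the 15919 genes tested, and FOSL1, ATF3 and EGR1 lower, against 10.1%. In THP-1, 4 were called: FOS, JUN and ATF3 higher, against 8.28% of 16020 genes, and EGR1 lower, against 9.76%. These shares include genes with as little as 1 count in the pair and are larger among well-counted genes. With at least 10 counts required, 1277 genes were higher and 1568 lower of 13076 in K562. In THP-1 these were 1239 and 1543 of 13680. The median log2 ratio of the members was -0.36 in K562 and 0.76 in THP-1, beside medians of -0.01 for all genes in each line. JUN rose and EGR1 fell in both lines, and ATF3 was called in both lines in opposite directions.

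**Figure D2:**
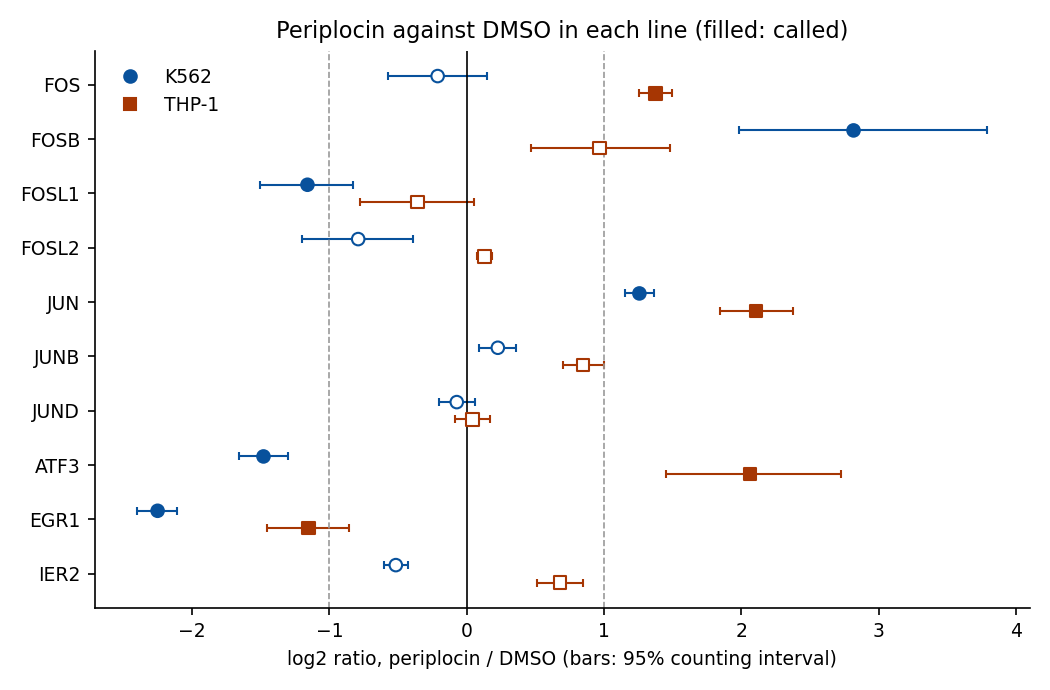
Log2 ratio of periplocin to DMSO for the 10 genes, circles for K562 and squares for THP-1, with 95% counting intervals as bars and filled symbols for called genes. Dashed lines mark 2-fold. JUN is right of 1 and EGR1 left of -1 in both lines, while ATF3 is at -1.48 in K562 and 2.06 in THP-1.

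Among the JUN genes, JUN itself, the family's main inducible activator, went from 1029 counts in DMSO to 2505 in periplocin in K562, and had 151 and 554 in THP-1. It was higher with periplocin in each line. It rose 2.39-fold in K562 (interval 2.22 to 2.57, adjusted p = 6.53e-133 in edgeR's exact binomial test) and 4.30-fold in THP-1 (3.59 to 5.19, adjusted p = 7.67e-69). Even after the larger rise in THP-1, its 31.3 CPM there were below the 62.8 CPM of K562 DMSO.

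JUNB, which often restrains JUN, had 819 and 976 counts in K562 and 607 and 931 in THP-1. Its log2 ratios were 0.23 and 0.85, both below the 2-fold limit though with intervals that left out 0. JUNB shares exon bases with HOOK2 on the other strand, and the use of strand in counting is not given in the sources used here. HOOK2 had 247 and 135 counts in K562 and 251 and 151 in THP-1, so its counts were lower in periplocin where those of JUNB were higher.

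JUND, the member that most cells make without stimulation, was the steadiest of the 10, with 955 and 925 counts in K562 and 1087 and 954 in THP-1. The log2 ratio was -0.07 in K562 (interval -0.20 to 0.06) and 0.04 in THP-1 (-0.08 to 0.17). It did not pass the test in any comparison.

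Among the FOS genes, FOS had 141 counts in DMSO and 124 in periplocin in K562, and 819 and 1810 in THP-1. The K562 libraries were close together and the THP-1 libraries far apart. In THP-1 it rose 2.59-fold (interval 2.39 to 2.82, adjusted p = 8.63e-122 in edgeR's exact binomial test), from 39.7 to 102 CPM, and in K562 its log2 ratio was -0.21 with an interval from -0.57 to 0.15.

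FOSB had 13 and 94 counts in K562 and 54 and 90 in THP-1. In DMSO it was lower in K562 than in THP-1, and in periplocin it was at about the same level in both lines, 5.68 and 5.08 CPM. The rise in K562 was 7.04-fold, with a wide interval of 3.96 to 13.8 because of the 13 counts in DMSO. In THP-1 the log2 ratio of 0.97 was just under the limit of 1.

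FOSL1 and FOSL2, also called FRA-1 and FRA-2, lack the strong activation domain of FOS. FOSL1 had 237 and 108 counts in K562 and 125 and 83 in THP-1, and was lower with periplocin in each line. It fell 2.23-fold in K562 (interval 1.77 to 2.83), while in THP-1 the log2 ratio of -0.36 had an interval that held 0. FOSL2 had 141 and 83 counts in K562, a log2 ratio of -0.79 that was below the limit. In THP-1 its 5819 and 5424 counts gave a log2 ratio of 0.13 with an interval from 0.08 to 0.18.

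ATF3 had 953 counts in DMSO and 348 in periplocin in K562, and 28 and 100 in THP-1. It was high in K562 DMSO and low in THP-1 DMSO, and the treated libraries were closer together. ATF3 fell 2.79-fold in K562 (interval 2.46 to 3.16, adjusted p = 1.17e-66 in edgeR's exact binomial test) and rose 4.17-fold in THP-1 (2.73 to 6.62, adjusted p = 7.26e-13).

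EGR1 had 2182 and 467 counts in K562 and 339 and 130 in THP-1. Both treated libraries were below their controls. The fall was 4.76-fold in K562 (interval 4.30 to 5.27, adjusted p = 6.21e-269 in edgeR's exact binomial test) and 2.22-fold in THP-1 (1.81 to 2.74, adjusted p = 2.39e-15). K562 periplocin, at 28.2 CPM, was still above THP-1 DMSO, at 16.4 CPM.

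IER2 had 2533 and 1804 counts in K562 and 517 and 705 in THP-1. The log2 ratios, -0.52 and 0.68, had opposite signs and intervals that left out 0, but neither reached 2-fold. An antisense gene on the other strand shares exon bases with IER2 and was not analysed here.

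The response itself was compared between lines as the difference of the log2 ratios, THP-1 minus K562, with a 95% interval from the 4 counts that was not adjusted for the number of genes. A difference was called when it was at least 1 and its interval left out 0. The THP-1 response was above that of K562 for ATF3 by 3.55 (interval 2.92 to 4.18), FOS by 1.59 (1.22 to 1.95), IER2 by 1.19 (1.01 to 1.38) and EGR1 by 1.10 (0.77 to 1.42). These 4 genes stand beside 10.8% of 13584 genes in that direction. The call for EGR1 was lost when a dispersion of 0.04 was assumed (interval -0.08 to 2.28). FOSB alone was called the other way, at -1.86 (interval -2.83 to -0.89), beside 9.29% of genes. For JUN the difference was 0.85 (0.57 to 1.13), for FOSL2 0.92, for FOSL1 0.80 and for JUNB 0.62, all with intervals above 0 but below the limit in size. For JUND it was 0.11 with an interval from -0.07 to 0.30.

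The same counts can be read as the distance between lines with and without periplocin, on the CPM scale. The ATF3 level of K562 was 42.8 times that of THP-1 in DMSO and 3.72 times in periplocin. For EGR1 these ratios were 8.10 and 3.84, for JUN 8.58 and 4.84, and for IER2 6.17 and 2.74. The FOS level of THP-1 was 4.61 times that of K562 in DMSO and 13.6 times in periplocin, and for FOSL2 these ratios were 32.8 and 61.1. The ratios in DMSO and in periplocin rest on the libraries already described and are no further evidence.

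With all 4 libraries in one model of line and treatment, edgeR's quasi-likelihood test called none of the 10 genes and 0 of 13584 genes (0%) at an adjusted p of 0.05, with 1538 genes under an unadjusted p of 0.05. This model has 1 residual degree of freedom and takes disagreement between the lines as its error. JUN had a shared log2 ratio of 1.68 (unadjusted p = 0.0020, adjusted p = 0.355) and EGR1 one of -1.71 (unadjusted p = 0.0036, adjusted p = 0.355). FOSB was at 1.85 with an unadjusted p of 0.046. DESeq2 with the same terms called 126 genes, of which JUN was the 1 member (adjusted p = 0.0242), and gave EGR1 an adjusted p of 0.0646.

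Summed over its members, in CPM per kilobase of exon, the FOS family stood at 11.7 in K562 DMSO and 7.49 in K562 periplocin, and at 55.4 and 77.7 in THP-1. The JUN family stood at 76.5 and 105 in K562 and at 46.5 and 66.6 in THP-1. In K562 the JUN family was above the FOS family, with a FOS to JUN ratio of 0.153 in DMSO and 0.0713 in periplocin. In THP-1 the ratios were 1.19 and 1.17, and they depended on the length given to each gene, at 1.39 and 1.46 with the longest coding transcript and 3.69 and 3.04 by counts alone.

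**Figure D3:**
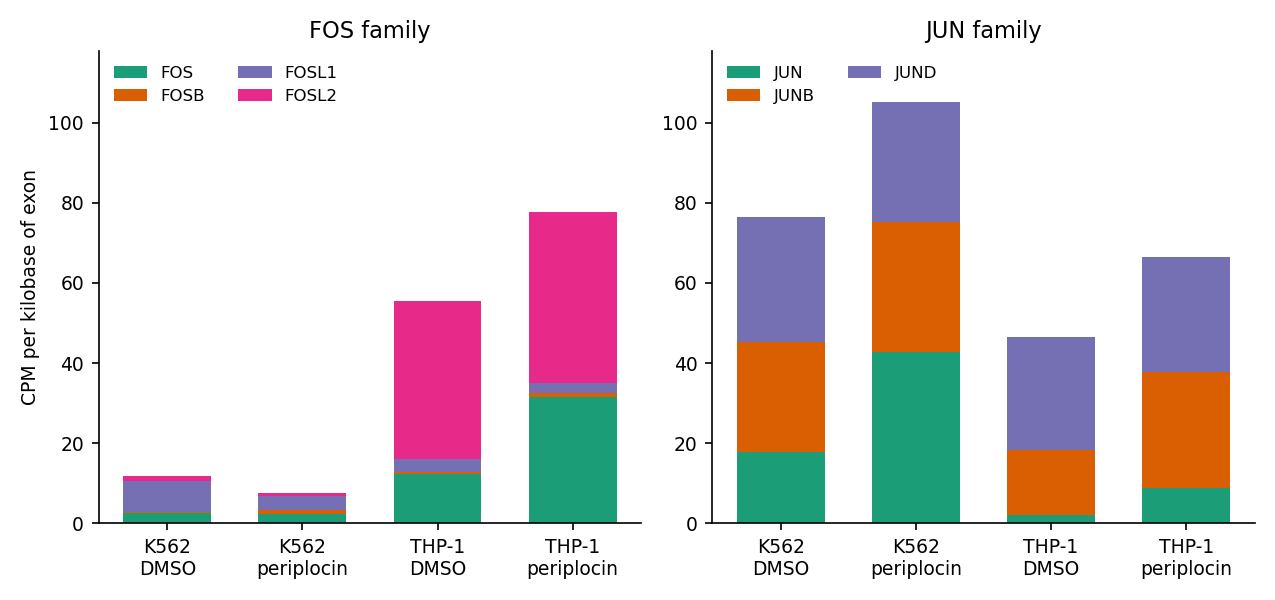
Stacked levels of the FOS family (left) and the JUN family (right) in the 4 libraries, in CPM per kilobase of exon, with 1 library per bar and no error bar. The FOS family bar is low in K562 (11.7 and 7.49) and made up mostly of FOSL2 and FOS in THP-1 (55.4 and 77.7).

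The make-up of the families also differed between libraries. JUN made up 23.2% of the JUN family in K562 DMSO (95% counting interval 21.8 to 24.6) and 40.7% in K562 periplocin (39.2 to 42.1). In THP-1 it went from 4.44% (3.74 to 5.15) to 13.3% (12.2 to 14.4). FOSL1 had the largest share of the FOS family in K562, with 65.7% in DMSO and 46.1% in periplocin, although by counts alone FOS (30.3%) was ahead of FOSL1 (26.4%) in periplocin. FOSL2 had the largest share in THP-1, with 71.2% (69.8 to 72.6) in DMSO and 55.0% (53.7 to 56.3) in periplocin, while FOS had 22.1% and 40.6%. With the longest coding transcript as length, FOS (48.7%) was ahead of FOSL2 (47.0%) in THP-1 periplocin. The shares have no test.

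A list of 9 other AP-1 and small MAF factors held close relatives of these genes. In K562, 0 were called higher and 2 lower: BATF, with 21 and 2 counts, and JDP2, a repressor that dimerizes with JUN, with 250 and 81. In THP-1, 3 were called higher and 0 lower: JDP2 with 549 and 1023 counts, BATF2 with 27 and 65, and MAFF with 26 and 53. The median log2 ratio of the 9 was -0.40 in K562 and 0.30 in THP-1, beside -0.01 for all genes, and the all-gene shares are those given for the members. ATF2, ATF7, MAFG and MAFK, which cells make more steadily, were called in neither line.

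Other immediate early genes numbered 27. In THP-1, 14 of 27 were called higher and 3 lower, beside 8.28% and 9.76% of all genes, with a median log2 ratio of 1.03. In K562, 7 of the 25 with counts were called higher and 4 lower, beside 8.18% and 10.1%, with a median of 0.02. These medians stand beside all-gene medians of -0.01 in both lines. Genes called higher in K562 included GADD45B, a stress sensor of the JNK and p38 pathways, with 32 and 165 counts, NR4A2, an orphan nuclear receptor, with 100 and 301, and IER5L with 21 and 50. In THP-1 they included EGR2, a relative of EGR1 tied to monocyte maturation, with 9 and 163 counts, NR4A3 with 3 and 36, and the antiproliferative gene BTG2 with 666 and 2127. Several of these genes were called higher in both lines. GADD45B and IER5L were also called higher in THP-1 (log2 ratios of 1.03 and 1.59), while NR4A2 was below the limit there (0.89). BTG2 was also called higher in K562 (1.12), as was NR4A3 (4.14), the latter on 1 and 20 counts.

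DUSP1 and SGK1 were named for the size of their ratio in both lines. DUSP1, the phosphatase that switches off JNK and p38, had 158 and 370 counts in K562 and 18 and 88 in THP-1, log2 ratios of 1.20 and 2.51. SGK1, a kinase regulated by serum, steroids and cell volume, had 172 and 381 counts in K562 and 31 and 166 in THP-1, log2 ratios of 1.12 and 2.65. EGR2 had 12 and 3 counts in K562, where it was called lower. EGR1 and EGR2 thus both fell in K562, whereas in THP-1 EGR1 fell and EGR2 rose.

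**Figure D4:**
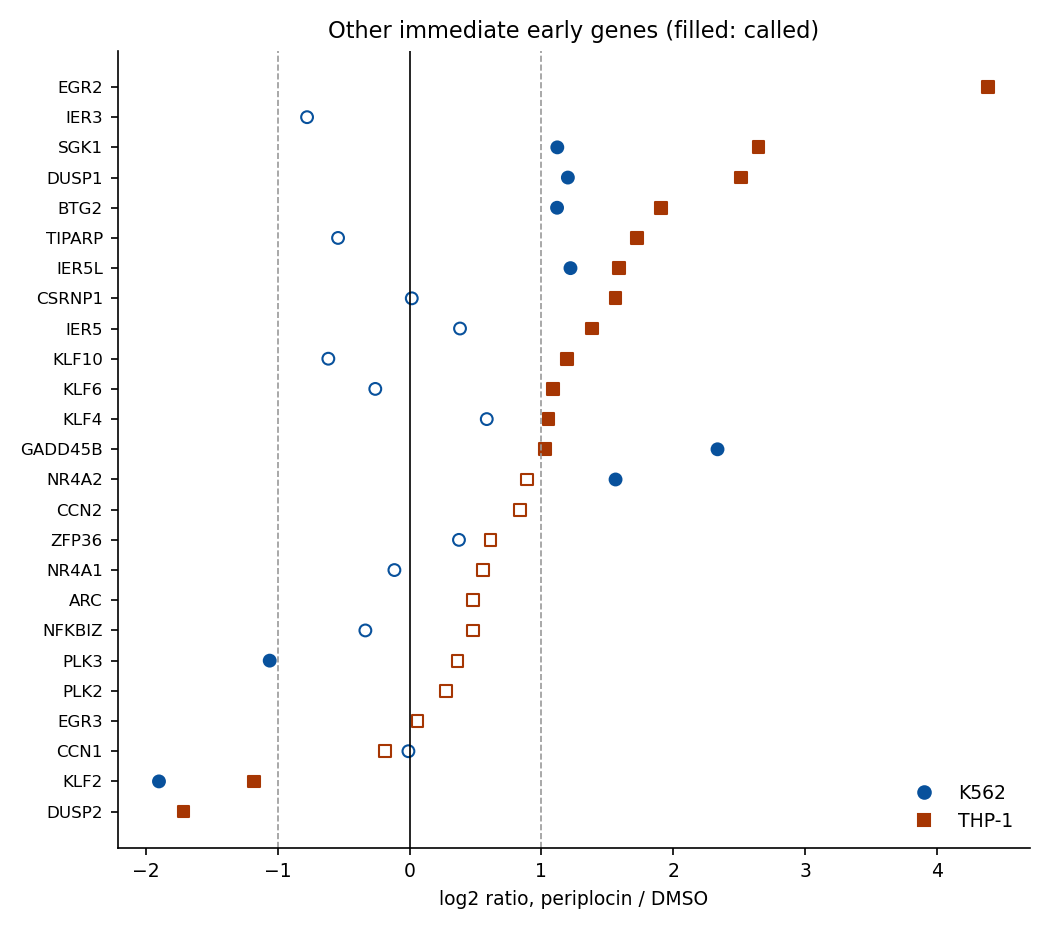
Log2 ratio of periplocin to DMSO for 25 of the 27 other immediate early genes, ordered by their value in THP-1, with circles for K562 (19 genes), squares for THP-1 (24 genes) and filled symbols for called genes. A line's point is left out where either of its libraries had 3 or fewer counts. Most squares lie right of 0, and the circles lie on both sides.

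The factors and kinases that switch these genes on were read as separate lists. Of 8 serum response and CREB factors, ELK3, a partner of serum response factor, was called lower in K562 with 286 and 72 counts, and none was called in THP-1, where ELK3 had 717 and 717. SRF itself had 1517 and 1590 counts in K562 and 3039 and 2187 in THP-1. Of 18 MAP kinase cascade genes, MAPK11, a p38 kinase, was called lower in both lines, with 235 and 29 counts in K562 and 142 and 60 in THP-1. MAP3K8, the kinase also called TPL2, was called higher in THP-1 with 195 and 398 counts. These calls stand beside 8.18% of all genes called higher and 10.1% lower in K562, and 8.28% and 9.76% in THP-1. The numbers called in both lists were near or under those shares and are not read as a result about the lists. NAB1 and NAB2, which bind EGR1 and repress it, were called in neither line. NAB2, itself an EGR1 target, had 459 and 240 counts in K562 and 365 and 532 in THP-1.

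Among genes known to have AP-1 sites, those called were lower in K562 and higher in THP-1. This list, like the others, was chosen with earlier results of these data known. Of 17 such genes, 14 had counts in K562, where 0 were called higher and 6 lower, beside 8.18% and 10.1% of all genes. In THP-1, 16 had counts, where 7 were called higher and 0 lower, beside 8.28% and 9.76%. Over genes with more than 3 counts in at least 1 library, with lower counts set to 3, the median log2 ratio was -1.17 in K562 (10 genes) and 1.28 in THP-1 (11 genes), and over all such genes it was -0.01 and -0.03.

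In K562 CCND1, the G1 cyclin, had 1365 and 186 counts, PLAU, the urokinase, 321 and 38, and IL6 195 and 50. CD44, an adhesion receptor, was called lower there with 29 and 9 counts, and higher in THP-1 with 5864 and 11058. In THP-1 the neutrophil chemokine CXCL8 had 13 and 117 counts, SPP1, which encodes osteopontin, 97 and 557, EMP1 13 and 58, and TIMP1 1464 and 3025. These genes answer to many factors, and the part of AP-1 in their values was not tested.

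ATF3 is also a target of the integrated stress response, in which ATF4 is the central factor. Of 7 genes of that response, TRIB3 (6499 and 1465 counts), SESN2 (6525 and 1556) and CHAC1 (932 and 303) were called lower in K562 and none higher. Of all genes, 10.1% were called lower there and 8.18% higher. DDIT3, which encodes CHOP, was just under the limit in both lines, in opposite directions. It had 1499 and 821 counts in K562 (log2 ratio -0.89) and 242 and 394 in THP-1 (0.93). In K562 the ATF4 transcript itself had 6722 and 8071 counts, and ASNS, another ATF4 target, 6784 and 8177. In THP-1, PPP1R15A, which lets translation resume, was called higher with 616 and 1730 counts, beside 8.28% of all genes. The other 6 were not called there. In K562 PPP1R15A had 4612 and 6758 counts, a log2 ratio of 0.52.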

How the data were processed

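Poly-A RNA of 4 libraries was sequenced with paired ends. The authors deposited 1 table of expected counts per gene, neither normalized nor pooled, of which 87.4% to 88.3% were whole (tolerance 1e-06). The submitters' processing notes name HISAT2, StringTie 1.3.1 and hg38. The counting program, its annotation and its use of strand are not given in the sources used here, and reads divided between genes would make counting error the least possible error. Labels and methods name different sequencers.

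Expected counts were rounded to whole numbers. Pairs of libraries were compared with edgeR 4.0.16 (R 4.3.3) by its exact binomial test at a dispersion of 0, on TMM-scaled library sizes, over genes with at least 1 count, with Benjamini-Hochberg adjustment. Calls needed an adjusted p under 0.05 and a log2 ratio of 1 or more in size, and Clopper-Pearson limits gave 95% intervals. Response differences and the model of 4 libraries (edgeR's quasi-likelihood test, DESeq2 1.42.0) were limited to the 13584 genes that reached 10 counts in 2 or more libraries. DESeq2 gave 1844 of these no adjusted p, and they stayed out of its calls. Exon lengths came from GENCODE release 29 and promoters from RefSeq. Family shares were computed per length with intervals from the counts. The tests of pairs and of response differences were checked on counts simulated without spread between cultures. That was no check against such spread. The quasi-likelihood test was checked on counts simulated with an assumed spread. Python 3.11.15 with pandas 2.3.3, numpy 2.4.6 and matplotlib 3.10.9 was used.

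The members and lists were chosen with earlier results of these data known. The named genes are all 10 members, any gene of a list of 9 or fewer, and in longer lists the 5 called genes per line with the largest ratio and a mean of at least 1 CPM. HOOK2 was named for its overlap, and 1 gene that the rule names is not reported here. The alternatives were other scalings, filters, prior counts, fold limits and dispersions of 0.01, 0.04 and 0.16. TMM over all 4 libraries was added as an alternative after the data had been seen. A comparison of the protein sequences was planned and not run, and cell assays were not analysed here.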

Additional observations from a re-analysis of the deposited data

Results flagged for a closer look

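The response to periplocin differed between K562 and THP-1 for 5 of the 10 genes, tested as the difference of the log2 ratios, THP-1 minus K562, against counting error alone. By the same rule 10.8% of 13584 genes were called with THP-1 above K562 and 9.29% with THP-1 below. The intervals were not adjusted for the number of genes. The difference was 3.55 for ATF3, which fell in K562 and rose in THP-1. It was 1.59 for FOS, which was called in THP-1 and had a K562 interval that held 0. For IER2 it was 1.19, with ratios of opposite sign that each stayed under 2-fold. For EGR1 it was 1.10, with a fall in both lines, and this call was lost at an assumed dispersion of 0.04, where the other 4 were kept. For FOSB it was -1.86, with the larger ratio in K562. With 1 library per condition, a difference between lines cannot be told apart from a difference between single cultures.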

How the results depend on the processing

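No analysis paired by replicate was possible because the groups compared share fewer than 2 replicate numbers. The model of 4 libraries did set treated against control within each line. No library could be left out because each condition had 1. Of the members' log2 ratios, 189 values under alternatives kept their direction and side of the threshold, 11 kept their direction only, and 0 reversed. Filters and dispersions leave a log2 ratio as it is. Other scalings of a pair moved it by at most 0.03 in K562 and 0.01 in THP-1, less than the smallest ratios, those of JUND (-0.07 and 0.04). A reversal could thus not arise from these settings, and its absence is no check of the direction. Those 11 arose at assumed dispersions of 0.04 (FOSL1 in K562, adjusted p = 0.0778, and EGR1 in THP-1, adjusted p = 0.0774) and 0.16. At 0.16 the 5 members called in K562 and the 4 in THP-1 both became 0, and the spread between cultures, which would set this value, was not measured. A limit of 2 on the log2 ratio left 2 members in K562 and 2 in THP-1, and a limit of 0.5 gave 7 in each line. Differences in response were called for 4 members in place of 5 at a dispersion of 0.04, with EGR1 lost. DESeq2 called 1 member over 4 libraries where edgeR's quasi-likelihood test called 0.

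Over all genes, 2908 calls in K562 and 2890 in THP-1 became 1728 and 1622 at a dispersion of 0.04, 100 and 88 at 0.16, 960 and 969 at a log2 limit of 2, and 5932 and 5938 at 0.5. The 6761 calls between DMSO libraries became 3359 at 0.16 and 4258 at a log2 limit of 2. Over 4 libraries edgeR called 2 genes with no filter beyond 1 count.

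By counts alone, without length, JUN made up 36.7%, 56.9%, 8.18% and 22.7% of its family in K562 DMSO, K562 periplocin, THP-1 DMSO and THP-1 periplocin, and FOSL2 26.5%, 20.3%, 85.4% and 73.2%. FOSL1 then made up 44.5% and 26.4% in K562, FOS 12.0% and 24.4% in THP-1, and the FOS to JUN ratio was 0.190, 0.0928, 3.69 and 3.04. With the longest coding transcript FOSL2 made up 64.9% and 47.0% in THP-1, FOS 28.4% and 48.7% there, and FOSL1 61.3% and 40.6% in K562, with FOS to JUN ratios of 0.185, 0.0916, 1.39 and 1.46. In the 250 bases before the start, 0 members held TGANTCA.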

Other observations

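Early response transcripts carry AU-rich elements, and 6 genes for proteins that bind such elements were read in the same libraries. ZFP36L1, which speeds the decay of these transcripts, went from 37 counts in DMSO to 416 in periplocin in THP-1, a log2 ratio of 3.72, and was the 1 gene called among the 6. Of all genes, 8.28% were called higher and 9.76% lower in THP-1. In K562 ZFP36L1 had 855 and 1156 counts, and 0 of the 6 were called, beside 8.18% of all genes higher and 10.1% lower. ZFP36L2 had 10568 and 5200 counts in THP-1 (log2 ratio -0.79) and 1405 and 2839 in K562 (0.99), both under the 2-fold limit. The stabilizing protein gene ELAVL1 had log2 ratios of 0.03 in K562 and -0.20 in THP-1. ZFP36, itself an immediate early gene, had ratios of 0.37 and 0.61.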
